A study of Mus musculus with 9 samples.

Results

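Small nucleolar RNAs (snoRNAs) were followed in mouse retina 7 days after an antibody against complement component C5 was injected into the vitreous. The members were chosen by gene symbol in the platform annotation, as probe sets whose symbols all begin with Snord or Snora, and no measured value entered that rule. They were 77 probe sets of 25341 that name a gene and of 41345 in all. Of these, 47 name 1 C/D box snoRNA, 28 name 1 H/ACA box snoRNA and 2 name both Snord1c and Snord1b. The group was taken up with earlier results of these arrays known, so its counts and medians are a description and no test is given over the list.

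All mice were 6-week-old males, of strain C57BL/6 in the labels and C57BL/6J in the methods of the study. Each array held the RNA of 4 pooled retinas from 4 mice. There were 9 arrays, 3 for the control injection, 3 for 1 μg and 3 for 10 μg of anti-C5 antibody, which binds the MG4 domain of mouse C5. The sample labels give the control as PBS (1 μL), whereas the methods of the study give an IgG1 isotype antibody (1 μg in 1 μL), and the files do not settle which it was. A pool is the replicate, so p-values measure the spread between pools and nothing about single mice.

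SnoRNAs are short stable RNAs of the nucleolus that pair with ribosomal RNA and direct its chemical modification. C/D box snoRNAs guide methylation of the ribose, with Fbl as the enzyme and Nop56, Nop58 and Snu13 as partners. H/ACA box snoRNAs guide the change of uridine to pseudouridine, with Dkc1 as the enzyme and Nhp2, Nop10 and Gar1 as partners. A few members of both classes take part in cutting the ribosomal precursor instead. Most mammalian snoRNAs are not transcribed alone but are released from introns of a host gene, many of which encode ribosomal proteins or other parts of the translation machinery.

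The genomic setting of the members followed that scheme in the RefSeq gene table (GRCm38.p6), in which all 73 genes that the members name alone were found. Of these, 70 lay inside the span of another gene, 50 in a protein-coding gene and 20 in a long noncoding RNA gene. Ribosomal protein genes held 18 of them. The other 3 were Snord13, Snord118 and Snord89, for which no surrounding gene was listed. The C/D box genes were 48 to 221 bases long with a median of 68, and the H/ACA box genes were 56 to 205 bases long with a median of 118.5.

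For 2 members an overlapping microRNA hairpin in RefSeq (GRCm38.p6) gives the RNA sequence, and both are shown because their differences at 10 μg ran in opposite directions. The capitals mark the bases that lie inside the snoRNA gene. The hairpin Mir3084-2 lies at chr19:60774329-60774397 on the minus strand and covers all 56 bases of Snora19. The hairpin Mir1291 lies at chr15:98519762-98519878 on the minus strand and covers 73 of the 118 bases of Snora34.
Snora19: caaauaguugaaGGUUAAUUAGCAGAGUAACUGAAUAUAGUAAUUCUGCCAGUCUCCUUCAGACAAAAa
Snora34: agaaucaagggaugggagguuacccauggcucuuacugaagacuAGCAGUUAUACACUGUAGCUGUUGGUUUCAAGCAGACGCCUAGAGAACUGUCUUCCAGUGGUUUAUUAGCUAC
The capitals of Snora19 end in ACA followed by 3 bases, the place of the ACA box in this class. Of the 1005 hairpins of the table read on their own strand, 14 (1.39%) hold ACA 4 bases from the end, as the Mir3084-2 hairpin does. A probe set for such a gene cannot be told apart here from one for the hairpin it shares.

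The tissue label was borne out by the rod markers, 7 of which were measured with a median control signal of 12.13 on the log2 scale. The array medians ranged from 5.88 to 6.04 and the correlation between arrays from 0.971 to 0.991. Whole retinas were measured, so that fewer cells of a type and less RNA per cell cannot be told apart. Lens and skeletal muscle markers varied between pools of the same group. The median deviation of 8 lens genes on the 3 control arrays was 0.46, 0.95 and -1.41, and that of 5 muscle genes was 1.78, -1.32 and -0.48. At 10 μg, 7 of the 8 lens genes and all 5 muscle genes were lower than control, with median differences of -1.03 and -0.47. At 1 μg, all 8 and all 5 were lower, with median differences of -0.83 and -0.87. The median standard errors were 0.53 for lens and 0.68 for muscle genes. The part of such tissue in the snoRNA values was not tested.

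At 10 μg of anti-C5 antibody, C/D box snoRNAs lay mostly above control and H/ACA box snoRNAs lay on both sides of it. Among C/D box probe sets that name 1 gene, 35 of 47 were higher at 10 μg, with a median log2 difference of 0.26 (1.20-fold) and a range of -0.52 to 0.85. Among H/ACA box probe sets, 17 of 28 were higher, with a median of 0.06 (1.04-fold) and a range of -0.68 to 0.50. The H/ACA box median was 0.03 without the third control array and 0.09 without the third array at 10 μg. Of all 25341 named probe sets, 14111 were higher at 10 μg, and the median over all named probe sets was 0.02. The pair naming Snord1c and Snord1b differed by 0.21 and 0.28. No member differed by more than 2-fold, and the 95% confidence interval of 74 of the 77 stayed within 2-fold in both directions.

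None of the 77 members had an adjusted p below 0.05 at 10 μg in limma, a linear model fitted over all genes with Benjamini-Hochberg adjustment. Of all named probe sets, 5 (0.0197%) did. At an unadjusted p below 0.05, 27 members (35.1%) were higher and 11 (14.3%) were lower at 10 μg, against 11.4% and 5.99% of all named probe sets. By class, 20 C/D box probe sets were higher and 4 lower at that level, whereas 7 H/ACA box probe sets were higher and 7 lower. The 7 lower ones include 2 probe sets of Snora19 with identical values. With these counted once, 10 members (13.2%) were lower. The count that passed the adjusted test depended on the fit. It was 5 when the variance was allowed to follow intensity, 5 when dim probe sets were left out, 3 after centring each array on its median, 1 after cyclic loess, 2 without the first or without the second array at 1 μg, and 1 without the third array at 10 μg. Calls over all named probe sets were not counted in these fits, so no share stands beside these counts.

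The groups of 3 arrays were also compared by overlap alone. For 29 members (37.7%) every array at 10 μg lay above every control array, and for 11 (14.3%) every array lay below. The corresponding shares of all named probe sets were 14.3% and 8.51%. The members without overlap included 21 C/D box probe sets above and 4 below, and 8 H/ACA box probe sets above and 7 below. With the identical Snora19 probe sets counted once, 10 members (13.2%) lay below.

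The split between classes was visible on single arrays. The median deviation of the C/D box probe sets from their own control means was 0.03, -0.05 and 0.02 on the control arrays, 0.08, 0.23 and 0.23 at 1 μg, and 0.18, 0.28 and 0.17 at 10 μg. All 3 arrays at 10 μg lay above all control arrays. For H/ACA box probe sets the values were 0.06, -0.02 and -0.03 on control arrays, -0.05, 0.09 and 0.01 at 1 μg, and 0.06, 0.03 and -0.04 at 10 μg, and the groups overlapped. The first array at 1 μg stood nearer to control than the other arrays at that dose for C/D box RNAs. Over all named probe sets, the median deviation was 0.065 on that first array and 0.018 and 0.016 on the others at 1 μg.

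**Figure D1:**
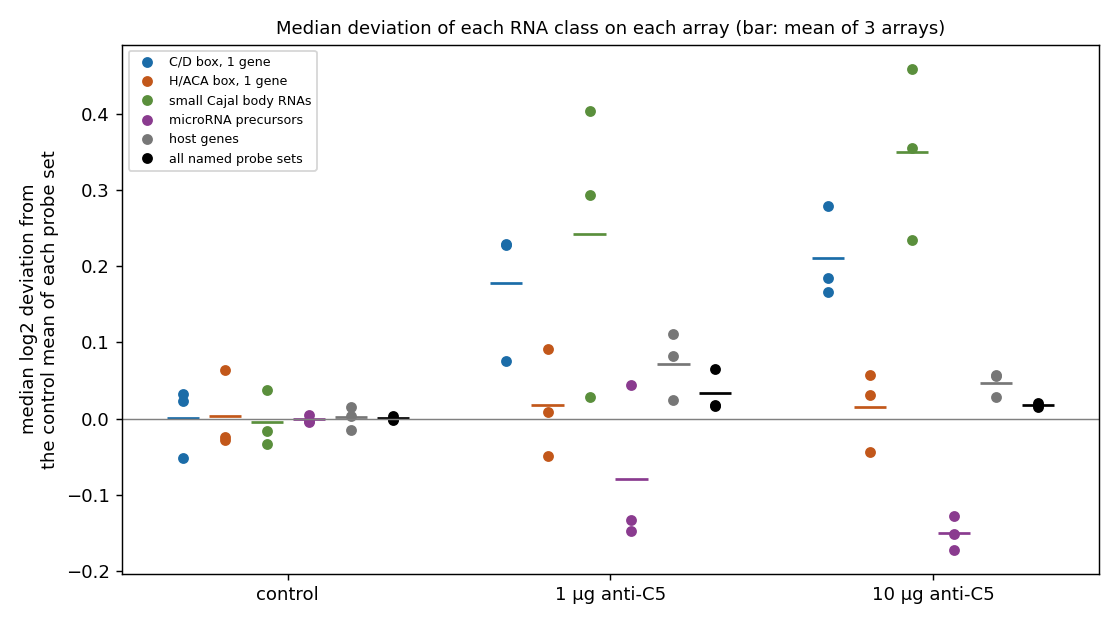
Median log2 deviation of each RNA class from the control means of its probe sets (y axis) on the 9 arrays (points), by injected dose (x axis), with the mean of 3 arrays as a bar. C/D box snoRNAs lie between 0.17 and 0.28 at 10 μg, H/ACA box snoRNAs between -0.04 and 0.06, and microRNA precursors between -0.17 and -0.13.

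Other small RNAs on the same arrays did not share one direction. The small Cajal body RNAs, relatives of snoRNAs that guide modification of spliceosomal RNA, had a median difference of 0.37 at 10 μg over 6 probe sets, of which 4 were higher at an unadjusted p below 0.05. The 511 microRNA precursor probe sets had a median of -0.16, with 17 higher (3.33%) and 142 lower (27.8%) at that level. Of all named probe sets, 11.4% were higher and 5.99% lower at 10 μg at that level. On the first array at 1 μg, precursors deviated by 0.04, whereas on the other arrays at that dose they deviated by -0.13 and -0.15. Markers of several retinal cell types differed on the same arrays. All 5 ganglion cell markers were higher at 10 μg, 4 of them at an unadjusted p below 0.05, with a median of 0.29. Their median deviation was -0.04, -0.02 and 0.06 on control arrays, 0.03, 0.26 and 0.29 at 1 μg, and 0.24, 0.35 and 0.35 at 10 μg. Pigment epithelium markers had a median of 0.45 at 10 μg over 4 genes, which overlapped with control. The 5 cone markers had a median of 0.01 at 10 μg. Of these, Arr3 differed by -0.41 (adjusted p = 0.0955, limma), and the others lay between -0.01 (Gnat2) and 0.13 (Opn1mw). The 4 microglia markers had median deviations of 0.02, 0.03 and -0.02 on control arrays, 0.22, 0.10 and 0.08 at 1 μg, and 0.16, 0.24 and 0.08 at 10 μg. The 4 Müller glia markers deviated by -0.02, 0.01 and 0.01 on control arrays, 0.03, 0.10 and 0.07 at 1 μg, and 0.03, 0.23 and 0.16 at 10 μg. The 4 bipolar cell markers deviated by -0.03, -0.02 and 0.07 on control arrays, 0.14, -0.04 and 0.02 at 1 μg, and -0.16, -0.09 and -0.11 at 10 μg. At 10 μg, ganglion cell, microglia and Müller glia medians thus lay above all control arrays and the bipolar cell median below them, whereas the 7 rod markers had a median difference of -0.01. Single markers did not all follow their list, as Aif1 of microglia differed by -0.05, Glul of Müller glia by 0.02 and Cabp5 of bipolar cells by 0.02. At an unadjusted p below 0.05 in limma, 1 of 4 microglia and 1 of 4 Müller glia markers were higher. Of the 4 bipolar cell markers, 2 were lower at that level. The part of these cell types in the snoRNA values was not tested.

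Snord13 had the largest difference of any member. It is transcribed from a gene of its own and directs acetylation of the RNA of the small ribosomal subunit. Its log2 values were 5.82, 5.68 and 5.56 in control retinas, 6.06, 6.61 and 6.05 at 1 μg, and 6.52, 6.66 and 6.42 at 10 μg. All arrays of both doses lay above all control arrays. The difference was 0.85 at 10 μg (standard error 0.151, 1.80-fold, adjusted p = 0.0588, limma) and 0.55 at 1 μg (adjusted p = 0.506, limma).

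Snord35a lies in an intron of Rpl13a, a ribosomal protein gene whose snoRNAs are known from the response of cells to excess fatty acid. It read 9.53, 9.35 and 9.32 in control retinas, 9.49, 9.82 and 9.85 at 1 μg, and 9.76, 10.18 and 10.15 at 10 μg. The arrays at 10 μg stood clear of control, whereas the first array at 1 μg lay within the control range. The difference at 10 μg was 0.63 (standard error 0.136, 1.55-fold, adjusted p = 0.0854, limma). The other snoRNAs of Rpl13a share their probe sets with the host gene and were not counted among the members, nor was any other of the 41 probe sets that name a snoRNA together with another gene.

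Among the members that act in cutting the ribosomal precursor, Snord118 is needed for maturation of the RNA of the large subunit. It read 6.65, 6.52 and 6.46 in control retinas, 6.68, 6.71 and 6.65 at 1 μg, and 6.77, 7.05 and 6.68 at 10 μg, a difference of 0.29 at 10 μg (adjusted p = 0.184, limma). Snord22, which takes part in making the small-subunit RNA in frog oocytes, read 5.63, 5.87 and 5.75 in control retinas, 5.90, 6.27 and 6.20 at 1 μg, and 6.17, 6.33 and 6.11 at 10 μg. Its difference was 0.46 at 10 μg (adjusted p = 0.106, limma) and 0.38 at 1 μg. Snora73a and Snora73b, close copies in Snhg3 that act in an early cut of the precursor, differed by 0.35 and 0.26 at 10 μg, with no overlap with control. Their probe sets may share signal.

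**Figure D2:**
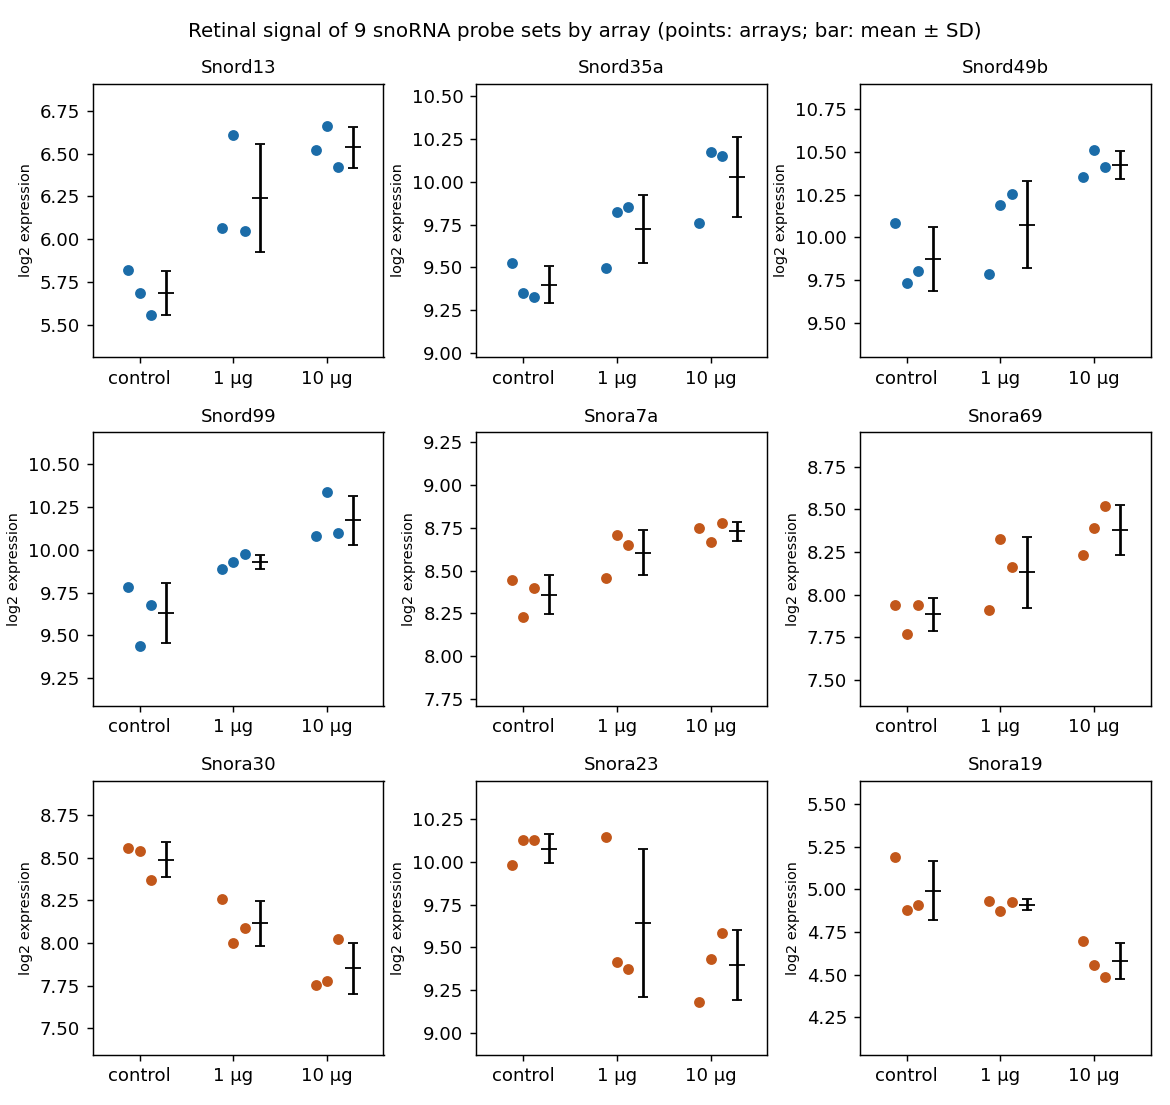
Log2 signal (y axis) of 9 members on each array (points) by dose (x axis), with the mean ± SD of 3 arrays beside them; every panel spans the same number of log2 units. The upper 6 members lie higher at 10 μg than in control, as Snord13 does by 0.85, and the lower 3 lie lower, as Snora30 does by 0.64.

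The H/ACA box member with the smallest p was Snora30, and it was lower. It lies in an intron of Srcap, which encodes a chromatin remodeller. Its values were 8.56, 8.54 and 8.37 in control retinas, 8.26, 8.001 and 8.09 at 1 μg, and 7.75, 7.78 and 8.02 at 10 μg. All arrays of both doses lay below all control arrays. The difference was -0.64 at 10 μg (standard error 0.1, adjusted p = 0.052, limma) and -0.37 at 1 μg (adjusted p = 0.506, limma). Over the alternative fits the adjusted p at 10 μg ran between 0.0222 and 0.193.

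Snora23, in an intron of the nuclear import receptor gene Ipo7, had the widest difference below control at 10 μg. It read 9.98, 10.13 and 10.13 in control retinas, 10.14, 9.41 and 9.38 at 1 μg, and 9.18, 9.43 and 9.58 at 10 μg. The first array at 1 μg was as high as control, and the other 5 antibody arrays lay below it. The difference at 10 μg was -0.68 (standard error 0.198, adjusted p = 0.144, limma), and its adjusted p was 0.0487 without the first array at 1 μg.

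Snora19, in the translation factor gene Eif3a, had a larger difference at 10 μg than at 1 μg, but neither the difference at 10 μg (adjusted p = 0.0956) nor that between the doses passed the adjusted test in limma. It read 5.19, 4.88 and 4.90 in control retinas, 4.93, 4.87 and 4.92 at 1 μg, and 4.69, 4.55 and 4.49 at 10 μg. The difference was -0.41 at 10 μg and -0.08 at 1 μg, and that of 10 μg against 1 μg was -0.33 (adjusted p = 0.416, limma). Its 2 probe sets carry identical values, so the members hold 76 distinct sets of values. Snora34, the other member shown by sequence, ran the other way at 0.41 on 10 μg and 0.33 on 1 μg, with all arrays of both doses above control.

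Further H/ACA box members lay above control. Snora69 read 7.94, 7.77 and 7.94 in control retinas, 7.91, 8.32 and 8.16 at 1 μg, and 8.23, 8.39 and 8.52 at 10 μg. Snora7a read 8.45, 8.23 and 8.40 in control retinas, 8.46, 8.71 and 8.65 at 1 μg, and 8.75, 8.67 and 8.78 at 10 μg. Both had no overlap at 10 μg, with differences of 0.50 and 0.37 and adjusted p of 0.102 and 0.0982 in limma. Snora74a and Snora20 lay lower at 10 μg by -0.47 and -0.40. Snora21 and Snora28, among the 5 H/ACA box probe sets with the strongest control signal, differed by 0.02 and 0.03. The 95% interval ran between -0.21 and 0.25 for Snora21 and between -0.25 and 0.30 for Snora28. The 2 probe sets of Snora33 did not give the same value. The bright one, at a control mean of 11.85, differed by 0.35, and the dim one, at 5.32, by 0.07.

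Further C/D box members lay above control at 10 μg as well. Snord49b read 10.08, 9.73 and 9.80 in control retinas, 9.78, 10.19 and 10.25 at 1 μg, and 10.35, 10.51 and 10.41 at 10 μg. Snord99 read 9.78, 9.44 and 9.68 in control retinas, 9.89, 9.93 and 9.97 at 1 μg, and 10.08, 10.34 and 10.10 at 10 μg. Both stood clear of control at 10 μg, and Snord99 did so at 1 μg too. The differences at 10 μg were 0.55 for Snord49b (adjusted p = 0.108, limma) and 0.54 for Snord99 (adjusted p = 0.0703, limma). Snord87 differed by 0.48, and of the strongest C/D box signals Snord89, Snord82 and Snord104 differed by 0.30, 0.28 and 0.22. The arrays of Snord104 overlapped with control.

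Against this direction, Snord88c, Snord111 and Snord37 were lower at 10 μg. Snord88c read 7.49, 7.41 and 7.49 in control retinas, 7.31, 6.81 and 7.03 at 1 μg, and 7.14, 6.72 and 6.95 at 10 μg. Its antibody arrays lay below control at both doses, with differences of -0.52 at 10 μg and -0.41 at 1 μg. Snord111 differed by -0.46 at 10 μg and -0.23 at 1 μg. Snord37, in an intron of the elongation factor gene Eef2, read 6.11, 6.15 and 6.41 in control retinas, 6.63, 6.47 and 6.34 at 1 μg, and 5.38, 5.84 and 6.07 at 10 μg. The doses thus lay on opposite sides of the control mean, at -0.46 for 10 μg and 0.26 for 1 μg. The difference of 10 μg against 1 μg was -0.72 (unadjusted p = 0.00254, adjusted p = 0.414, limma).

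**Figure D3:**
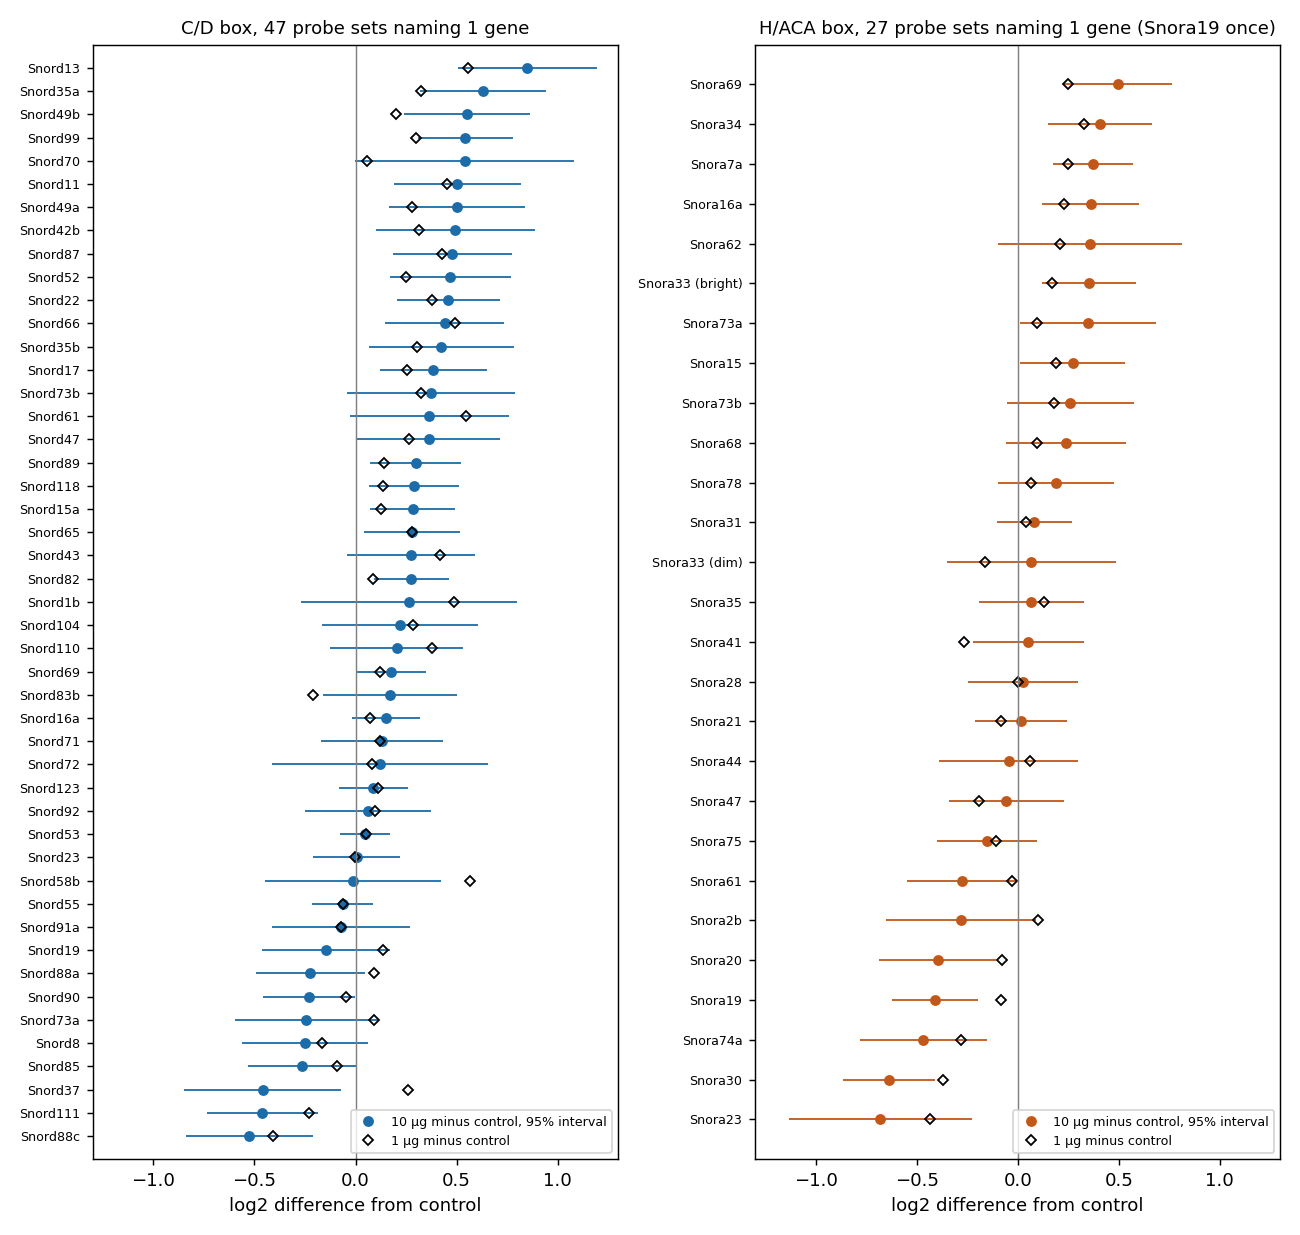
Log2 difference from control (x axis) of each probe set that names 1 snoRNA (y axis), for 10 μg (filled, with its 95% interval) and 1 μg (open diamonds), with C/D box RNAs on the left and H/ACA box RNAs on the right. At 10 μg, 35 of 47 C/D box and 17 of 28 H/ACA box probe sets lie right of 0, with the 2 identical Snora19 probe sets drawn once. Of all 25341 named probe sets, 14111 were higher at 10 μg.

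At 1 μg, 38 of 47 C/D box probe sets that name 1 gene and 16 of 28 H/ACA box probe sets were higher. Of all 25341 named probe sets, 15926 were higher. The C/D box median was 0.14 (range -0.41 to 0.57) and the H/ACA box median was 0.05 (range -0.43 to 0.33), against 0.04 over all named probe sets. No member had an adjusted p below 0.05 in limma, and neither did any named probe set (0%). At an unadjusted p below 0.05, 14 members were higher and 2 lower, against 7.2% and 1.84% of all named probe sets. The 14 were 12 of the 47 C/D box probe sets (25.5%) and 2 of the 28 H/ACA box probe sets (7.14%). Every array at 1 μg lay above control for 16 members (20.8%) and below for 3 (3.9%), against 12.5% and 2.45% of all named probe sets. Without the first array at 1 μg, 24 members were higher and 5 lower, and the C/D box median was 0.25. The H/ACA box median was -0.02 without the second array at 1 μg. Without the third array at 1 μg or the second control array, 7 and 9 members were higher. Array weights gave 27 higher and 5 lower. The shares of all named probe sets in these changed settings were not counted.

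Snord66, in the translation factor gene Eif4g1, had the smallest p among members that were higher at 1 μg. It read 5.96, 6.03 and 6.24 in control retinas, 6.41, 6.63 and 6.67 at 1 μg, and 6.45, 6.78 and 6.34 at 10 μg, and neither dose overlapped with control. Its differences were 0.49 at 1 μg and 0.44 at 10 μg. Snord11, from the gene of its own core protein Nop58, differed by 0.45 and 0.50 at these doses. Snord58b differed by 0.57 at 1 μg and -0.01 at 10 μg, with overlapping arrays at both. Snora41 lay lower at 1 μg by -0.27 and differed by 0.05 at 10 μg. Both doses are set against the same 3 control arrays.

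Between the doses, no member and no named probe set (0%) had an adjusted p below 0.05 in limma, and 5 members were higher and 8 lower at 10 μg than at 1 μg at an unadjusted p below 0.05. These are 6.49% and 10.4% of members, against 3.93% and 6.45% of all named probe sets. With the identical Snora19 probe sets counted once, 7 members (9.21%) were lower. The higher members included Snora41 at 0.32, Snord83b at 0.38, Snord49b at 0.35 and Snord99 at 0.24. The lower members included Snord37, Snora19, Snord58b at -0.58 and Snord88a at -0.31. The median over all members was 0.05.

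Host genes were compared with the snoRNAs inside them. Of the 56 hosts, 43 had a probe set of their own, covering 57 member genes. Their median difference at 10 μg was 0.06, with 11 higher (25.6%) and 2 lower (4.65%) at an unadjusted p below 0.05, against 11.4% and 5.99% of all named probe sets. Member and host were both higher in 32 of 57 pairs and both lower in 9, whereas only the member was higher in 7 and only the host in 9. Across the 57 pairs the Pearson correlation of the differences at 10 μg was 0.293 and the Spearman correlation 0.242. The pairs come from the same arrays and some share a host, so that this is a description. The median standard error was 0.13 for members and 0.08 for hosts. Whether a probe set read the mature snoRNA or the unspliced transcript of its host was not tested.

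Only 2 hosts held 3 or more measured members, both long noncoding RNA genes. In 2410006H16Rik, the host differed by 0.56 at 10 μg (unadjusted p = 0.00203) and its members Snord49b, Snord49a and Snord65 by 0.55, 0.50 and 0.28, all without overlap with control. In Snhg12, the host differed by 0.06, Snord99 by 0.54, Snora16a by 0.36, Snora44 by -0.04 and Snora61 by -0.27. Snora16a read 6.82, 7.01 and 6.83 in control retinas, 6.91, 7.32 and 7.11 at 1 μg, and 7.29, 7.19 and 7.26 at 10 μg. Snora61 read 7.06, 6.97 and 6.94 in control retinas, 7.18, 6.92 and 6.80 at 1 μg, and 6.90, 6.53 and 6.72 at 10 μg. At 10 μg, 2 snoRNAs of one transcript thus stood above control, and a further member of it below, without overlap.

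The starts of these 2 host genes are shown because many snoRNA host genes begin transcription within a run of pyrimidines, the mark of transcripts whose translation follows growth signals. The windows hold 50 bases before and 50 from the first base of the gene, from RefSeq (GRCm38.p6), and both genes run on the plus strand. They lie at chr11:62602827-62602926 for 2410006H16Rik and chr4:132308628-132308727 for Snhg12. The capitals mark an unbroken run of at least 6 C or T that reaches to within 3 bases of the start.
2410006H16Rik: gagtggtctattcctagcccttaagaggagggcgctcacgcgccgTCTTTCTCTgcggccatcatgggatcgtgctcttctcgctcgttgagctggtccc
Snhg12: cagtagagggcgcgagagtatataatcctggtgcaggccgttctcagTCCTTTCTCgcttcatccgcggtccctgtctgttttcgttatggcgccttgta
Both runs are 9 bases long and cover the start. On the strand of the gene, such a run was found at 5517 of 32851 listed starts (16.8%) and at 17 of 48 listed starts of the host genes (35.4%). The 48 starts belong to 44 of the 56 hosts. Whether such a run bears on the differences of the snoRNAs was not tested.

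Other pairs of host and snoRNA ran together in some cases and apart in others. Rpsa, a ribosomal protein gene, differed by 0.51 and its Snora62 by 0.36, with overlapping arrays for the snoRNA. Snhg1 differed by 0.37 and its Snord22 by 0.46. Rpl39 differed by -0.30 (unadjusted p = 0.00486), whereas Snora69 inside it differed by 0.50. Tcp1, a chaperonin subunit gene, differed by 0.25, whereas its Snora20 differed by -0.40. Srcap and Ipo7, the hosts of Snora30 and Snora23, differed by -0.09 and -0.01. Nop58 differed by 0.01, whereas its Snord11 and Snord70 differed by 0.50 and 0.54. Of the hosts of several members, 2410002F23Rik was the only one whose members were all lower, with Snord88c at -0.52 and Snord88a at -0.22, and the host itself differed by -0.12.

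**Figure D4:**
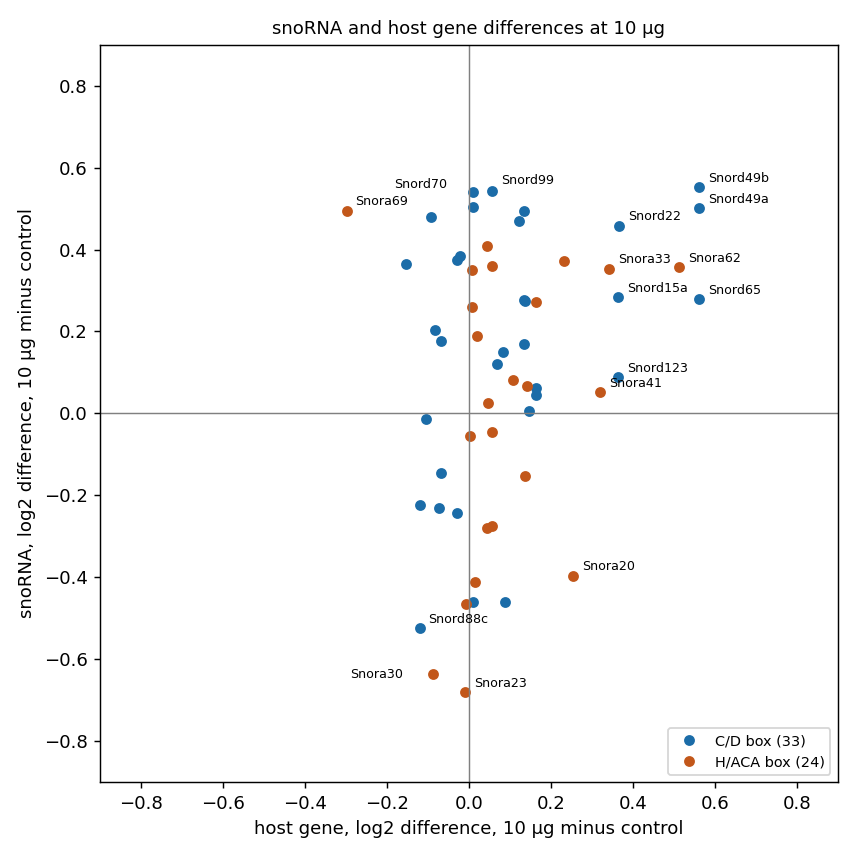
Log2 difference at 10 μg against control of 57 snoRNA genes (y axis) and of the host gene around each (x axis), with C/D box in blue and H/ACA box in orange. The 3 snoRNAs of 2410006H16Rik stand at the right at a host difference of 0.56, whereas Snora30 and Snora23 lie low at host differences of -0.09 and -0.01.

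The proteins that carry or assemble snoRNAs were counted against the same shares of all named probe sets, 11.4% higher and 5.99% lower. Of 7 measured core proteins, 3 were higher and 1 lower at 10 μg at an unadjusted p below 0.05, with a median of 0.01, and none passed the adjusted test. Snu13, the first protein to bind C/D box RNAs, differed by 0.30 (adjusted p = 0.0854, limma), Nhp2 by 0.38, Nop10 by 0.22 and Gar1 by -0.17. The enzyme gene Dkc1 differed by -0.10, and Fbl was not analysed here. Of 17 assembly and processing factors, 1 was higher (Nolc1, a nucleolar and Cajal body protein, at 0.17) and 1 lower (Dis3, an exosome nuclease, at -0.15), which is 5.88% each way. Of 10 proteins of the complex around the U3 snoRNA, 2 were higher (Imp3 at 0.34 and Imp4 at 0.16) and none lower, with a median of 0.05.

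At 10 μg, the median difference of C/D box RNAs was lowest among those of low signal, which is a description. The members were ranked by mean signal and split into 3 parts of like size. In the upper part 14 of 16 C/D box probe sets were higher at 10 μg with a median of 0.33, in the middle part 10 of 11 with 0.28, and in the lower part 11 of 20 with 0.08. Among H/ACA box RNAs the medians were 0.03, 0.19 and 0.07 in the same order. Across the 47 C/D box probe sets the Pearson correlation of the difference at 10 μg was 0.253 with control signal and 0.13 with RNA length. Probe sets of low signal hold more background, and its part in these differences was not tested. Of the 77 members, 49 lay above the median control signal of all named probe sets.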

How the data were processed

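Total RNA of pooled mouse retinas, extracted with Trizol and labelled after random priming, had been hybridised to Affymetrix Mouse Gene ST arrays (3 per group). The deposited table holds log2 signals that the authors had computed with the RMA method of Affymetrix Expression Console 1.1. That method corrects background, normalizes quantiles and summarises probes by median polish. The array images were not used here. Gene symbols came from the platform annotation, and spans and sequences from RefSeq tables of GRCm38.p6. These gave no strand for snoRNAs, so a host is a gene whose span holds the snoRNA on either strand.

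All 9 arrays entered 1 fit with group as the only term (limma 3.58.1, R 4.3.3), and p-values were adjusted over 25341 named probe sets at 0.05. The steps were tested on simulated data. Python 3.11.15, pandas 2.3.3 and matplotlib 3.10.9 made the other tables and plots. The members, lists and rules were chosen with earlier results of these data known. Named members were the 5 strongest control signals per class, the 8, 5 and 4 smallest p-values in each direction for 10 μg against control, 1 μg against control and 10 μg against 1 μg, members of known special role, those of a host with at least 4 members and probe sets naming several genes. Snord49a, Snord65, Snord70, Snora34 and Snora62 were named in addition, after their values were seen. Alternatives changed the spread estimate, weights, scaling, filter, features and arrays. The number of arrays limits the precision, with a median 95% half-width of 0.212 on the log2 scale.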

Additional observations from a re-analysis of the deposited data

How the results depend on the processing

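The 36 named probe sets gave 72 differences, none with an adjusted p below 0.05. All 72 were computed in 18 of 20 alternative settings, 60 without dim probe sets and 68 with probe sets naming 1 gene only. Those computed stayed above 0.05 except for Snora30, Snord13, Snord99, Snord35a, Snora7a and Snora23 at 10 μg, each in 1 or more settings. Differences near 0 changed sign, as those of Snora21 (-0.06 to 0.07) and Snora28 (-0.09 to 0.10) at 10 μg. The number of members with an adjusted p below 0.05 at 10 μg (0 in limma) was 5 with an intensity trend, 3 after median centring, 1 after cyclic loess, 5 without dim probe sets and 0 to 2 when single arrays were left out. It was 0 at 1 μg and between doses, also when single arrays were left out. At an unadjusted p below 0.05, lower members at 10 μg (11) numbered 7 without dim probe sets and 8 to 12 over left-out arrays, and higher ones (27) numbered 20 to 28. At 1 μg, lower members (2) numbered 4 with the trend, centring, cyclic loess or without dim probe sets, 5 with array weights and 2 to 5 over left-out arrays. Higher members at 1 μg (14) numbered 27 with array weights and 7 to 24 over left-out arrays. Over left-out arrays the C/D box median was 0.18 (without the second array at 10 μg) to 0.26 at 10 μg and 0.13 to 0.25 at 1 μg, and the H/ACA box median was 0.03 to 0.09 at 10 μg and -0.023 to 0.062 at 1 μg. Without dim probe sets the C/D box median at 1 μg was 0.26. Shares of all named probe sets were not counted in these settings, and the causes were not tested.

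The correlations of the deviations of same-numbered arrays ran between -0.201 and 0.126 over 9 pairs. Those of differently numbered arrays ran between -0.176 and 0.316. Such values cannot settle whether same-numbered arrays were handled together. The replicate block gave 0 adjusted calls at 10 μg, 27 higher and 11 lower members at 10 μg, and 15 higher and 4 lower at 1 μg. Each replicate number occurs once per group, so the block cannot change a difference and the class medians were the same by design.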
